A study of Mus musculus with 6 samples.

Results

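The miRNA families miR-297, miR-466, miR-467 and miR-669 were followed in the prefrontal cortex of BTBR and C57BL/6J mice. Members were taken by name: every assay of the panel whose miRNA name starts with one of these 4 family numbers, followed by at most a letter and a copy number, with both arms and both assay pools kept. That gave 33 assays of 750, with 3 for miR-297 and 10 each for miR-466, miR-467 and miR-669. Of the 33, 31 were designed for mouse (mmu) and rno-miR-466b and rno-miR-466c for rat.

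The samples were whole prefrontal cortex of 6 untreated male mice aged 5 months, 1 sample per mouse. The C57BL/6J group held 3 wild-type mice of the control strain. The BTBR group held 3 mice given as BTBR T+ Itpr3tf/J, an inbred strain studied for its autism-like traits, although the strain background field of their labels reads C57BL/6J. The readout was the cycle threshold of a TaqMan OpenArray assay, the PCR cycle at which its signal crosses a set level, so a higher threshold stands for less RNA, and 40 was read as undetermined. In tissue samples, fewer cells of a type and less RNA per cell cannot be told apart.

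miRNAs of these families come mostly from a very large hairpin cluster in an intron of Sfmbt2, an imprinted gene of the Polycomb group that is transcribed from the paternal copy in the early embryo and the placenta. The cluster is found in rodents, grew by repeated duplication of short hairpins, and is best known from embryonic stem cells and trophoblast, where its loss harms the placenta. A miRNA recognises target mRNAs mainly through its seed, and many hairpins of the cluster yield mature forms that are alike in sequence and rich in U and G.

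The label of a cluster in Sfmbt2 held for most members but not for all. RefSeq's gene table for GRCm38.p6 lists 72 miRNA genes between the ends of Sfmbt2, and all of these carry one of the 4 family names as their symbol or, for Gm25285, as an older name. By name, 24 assays matched hairpins inside Sfmbt2 alone, and mmu-miR-297a# matched 3 hairpins inside it and 1 elsewhere. The assays MMU-MIR-467H, MMU-MIR-466J, MMU-MIR-467F, MMU-MIR-669N and MMU-MIR-466K matched hairpins on other chromosomes. The remaining 3, mmu-miR-466a-3p and both rat assays, matched no entry by name. For mmu-miR-466a-3p the match could not reach Mir466, the 56th hairpin inside Sfmbt2, whose symbol carries no letter. The place of that assay is therefore open. The group is therefore called by its family names below, and the assays inside Sfmbt2 are given apart where it matters.

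In RefSeq's table, a match of names without arm marks found mature sequences for 5 of the 33 assays, all of them hairpins outside Sfmbt2. Entries whose names carry an arm mark could not be matched this way. The 5 sequences are all that this match found and were not picked by their letters or signal. None of the 5 assays gave a signal. Capitals mark the seed, bases 2 to 8, in each mature sequence read 5′ to 3′.
MMU-MIR-466K: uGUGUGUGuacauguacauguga
MMU-MIR-466J: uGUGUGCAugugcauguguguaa
MMU-MIR-669N: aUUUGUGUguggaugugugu
MMU-MIR-467H: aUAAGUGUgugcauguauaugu
MMU-MIR-467F: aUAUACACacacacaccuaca
In GRCm38.p6 they lie at chr3:85467396-85467418 (plus strand), chr10:60960802-60960824 (plus), chr3:115979905-115979924 (plus), chr9:115381898-115381919 (plus) and chr11:69635419-69635439 (minus), in the order printed. The 5 seeds are all different. MMU-MIR-669N has U or G at 18 of 20 bases, MMU-MIR-466J at 17 of 23, MMU-MIR-466K at 16 of 23 and MMU-MIR-467H at 15 of 22. MMU-MIR-467F has the opposite make-up, with A or C at 18 of 21 bases. The longest run of strictly alternating U and G, or A and C, was 12 bases in MMU-MIR-467F, 9 in MMU-MIR-466K, 8 in MMU-MIR-669N and 7 in the other 2. A run of at least 8 bases, searched on the mature strand, was in 3 of the 5 and in 13 (0.774%) of the 1679 mature mouse sequences of the table.

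Some features of the samples bear on every result. BTBR replicate 3 resembled the other strain more than its own: across the 237 assays detected in all 6 samples, its raw thresholds correlated with those of the C57BL/6J samples at Pearson r of 0.937, 0.964 and 0.957, and with BTBR replicates 1 and 2 at 0.918 and 0.911. These are correlations across assays, which are not independent replicates. A BTBR sample had 347 to 404 detected assays of 750 and a C57BL/6J sample 289 to 305. Of 80 spots of endogenous control RNAs, 78 to 80 gave a signal in BTBR samples but only 59 to 63 in C57BL/6J samples. More wells were therefore undetermined in C57BL/6J even for control RNAs, and the part of this in the results was not tested. Of 5 neuronal markers, hsa-miR-128a was detected in all samples at 13.81 to 14.91 cycles, hsa-miR-9# at 13.49 to 14.09 and mmu-miR-124a at 19.79 to 31.40. The other two differed between samples in opposite ways: hsa-miR-9 was undetermined in all C57BL/6J samples and BTBR replicate 3, and hsa-miR-124# was read at 13.68 to 22.74 cycles in C57BL/6J and was undetermined in all BTBR samples. Of 6 oligodendrocyte assays, 4 to 5 were detected in C57BL/6J samples and 5 to 6 in BTBR, and of 2 endothelial assays 1 to 2 and 2. Of 4 leukocyte assays, 0 to 3 were detected in C57BL/6J samples and 2 to 3 in BTBR, of 3 red blood cell assays 1 in each C57BL/6J sample and 2 in each BTBR sample, and of 3 choroid plexus assays 2 in every sample.

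Most of the 33 assays gave no signal in cortex. A threshold of at least 10 and under 40 counted as detected, and 11 assays (33.3%) were detected in at least 1 sample, against 62.9% of the 717 other assays. Only 5 (15.2%) were detected in all 6 samples, against 232 (32.4%) of the others. The share detected was lower than that of the other assays in each of the 6 samples, from 15.2% to 27.3% for the families and from 39.2% to 55.1% for the others. Both pools showed it: 4 of 11 members and 71.4% of the panel were detected at least once in pool A, and 7 of 22 members and 51.7% of the panel in pool B. No member reading lay under 10 cycles. The 42 detected readings had a median of 26.90 cycles, late against 22.75 for the 2004 readings of the panel.

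**Figure D1:**
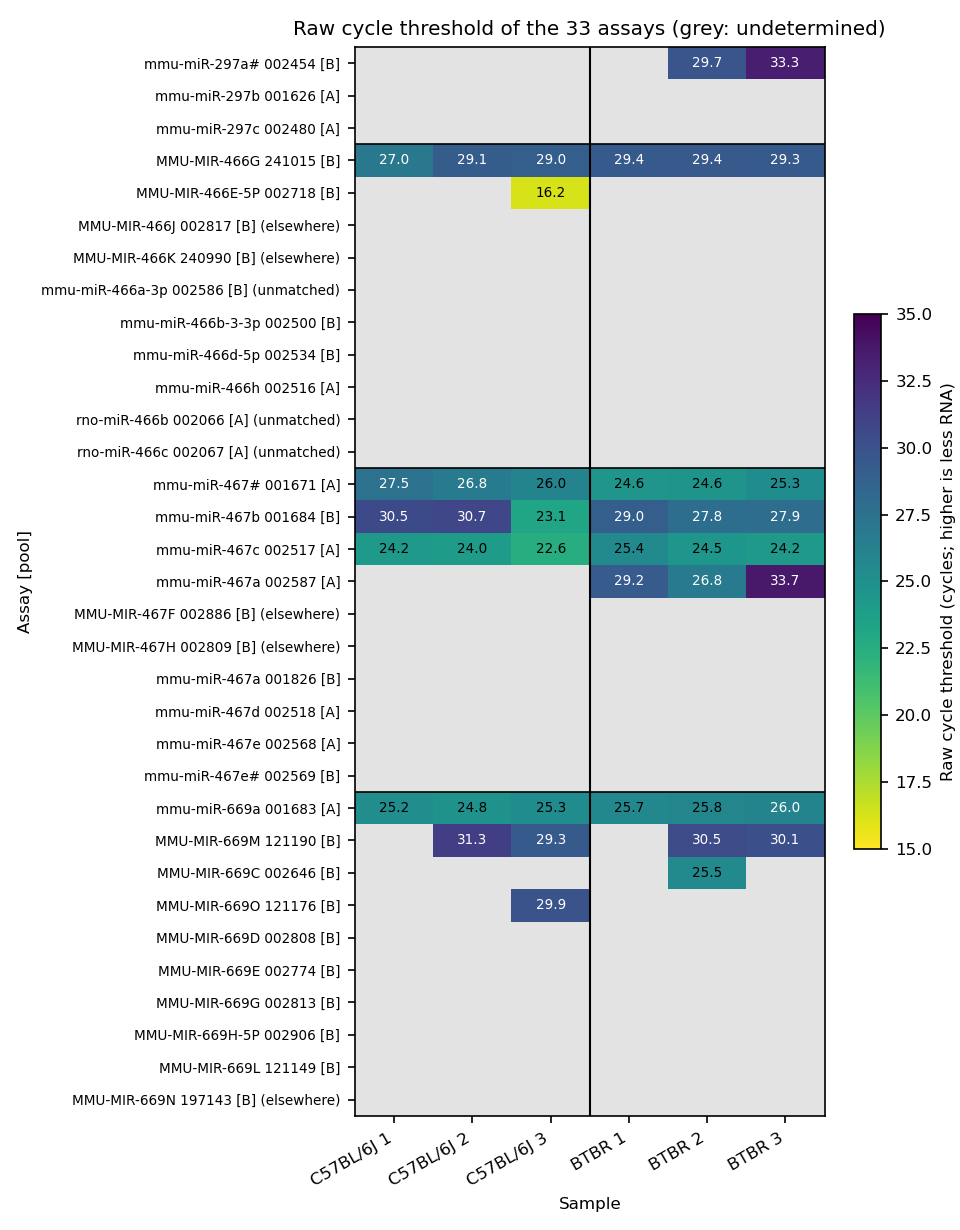
Raw cycle thresholds (colour and printed value, in cycles) of the 33 assays in the 3 C57BL/6J and 3 BTBR samples, with grey for undetermined, assays grouped by family, their pool in brackets, and assays placed outside Sfmbt2 or unmatched so marked. A full row of 6 values is seen in 5 assays, and 22 rows are grey throughout.

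By family, 4 of 10 miR-467 assays, 4 of 10 miR-669 assays, 2 of 10 miR-466 assays and 1 of 3 miR-297 assays were detected at least once. The 5 found in every sample were mmu-miR-467#, mmu-miR-467c, mmu-miR-467b, mmu-miR-669a and MMU-MIR-466G. All 11 detected assays were among the 25 matched to a hairpin inside Sfmbt2. Of the 5 assays placed elsewhere and the 3 unmatched ones, 0 were detected. The miRNAs of the miR-290 to miR-295 cluster, another group known from embryonic stem cells, were detected at least once in 2 of 19 assays and in all samples in 0. The distal Dlk1-Dio3 cluster, a large imprinted cluster expressed in brain, stood at 45 of 58 and 27 of 58.

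Several members stand for more than 1 gene copy. The name mmu-miR-669a matched 12 hairpins, mmu-miR-467a 10 and mmu-miR-466b-3-3p 8, so their assays can sum the output of several copies. Of the 7 assays that matched several hairpins with at least 1 inside Sfmbt2, 4 were detected at least once, and of the 18 that matched a single hairpin there, 7 were. The single-hairpin assays include mmu-miR-467#, which was assigned by its old name to Mir467a-1 alone. It may read other miR-467a hairpins too, so this split by copies is not firm. Detection did not follow the number of copies in every case: mmu-miR-466b-3-3p was undetermined in all samples, while mmu-miR-467c and mmu-miR-467b, with 1 hairpin each, were found in all 6. Assays found in all 6 samples came from early and late in the row of hairpins, from mmu-miR-467c at the 13th to MMU-MIR-466G at the 66th of the 72. How far 1 assay also reads another member was not tested.

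**Figure D2:**
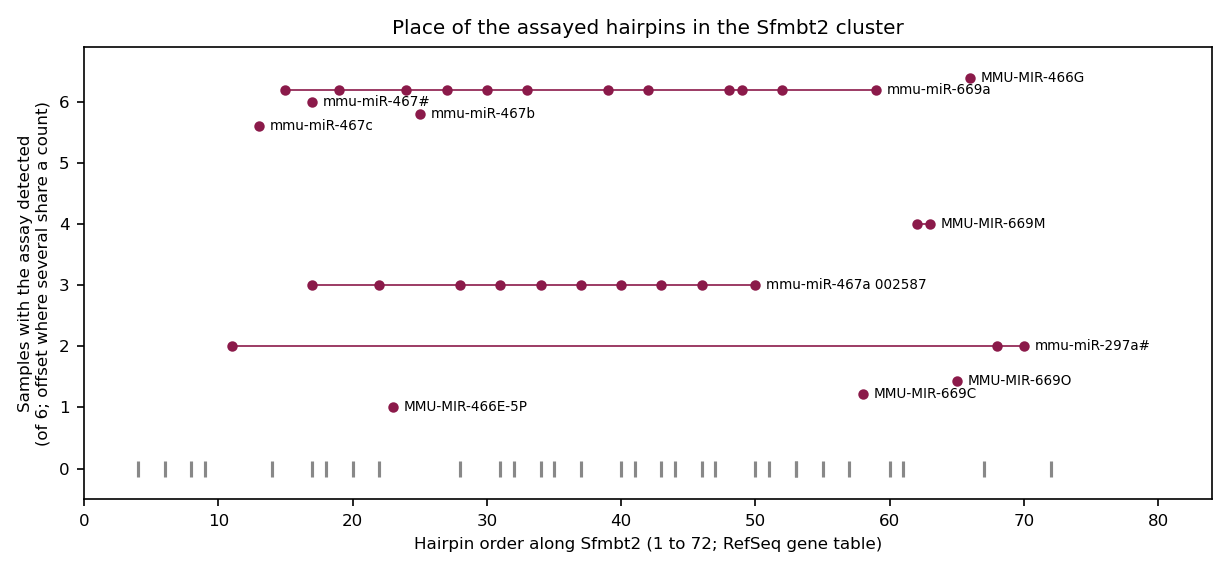
Number of samples, of 6, in which each assay was detected, against the order of its hairpins along Sfmbt2 in RefSeq's gene table. Joined points are hairpins that share an assay, grey marks are hairpins of assays detected in 0 samples, and points are offset where several assays share a count. Assays found in all 6 samples lie from the 13th to the 66th hairpin.

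The assays detected in 0 samples were mmu-miR-297b, mmu-miR-297c, rno-miR-466b, rno-miR-466c, mmu-miR-466a-3p, mmu-miR-466b-3-3p, mmu-miR-466d-5p, mmu-miR-466h, MMU-MIR-466J, MMU-MIR-466K, mmu-miR-467a (assay 001826), mmu-miR-467d, mmu-miR-467e, mmu-miR-467e#, MMU-MIR-467F, MMU-MIR-467H, MMU-MIR-669D, MMU-MIR-669E, MMU-MIR-669G, MMU-MIR-669H-5P, MMU-MIR-669L and MMU-MIR-669N. An undetermined assay gives no level and no direction of change.

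The first question was whether the strains differ in which members are detected. The C57BL/6J samples had 5, 6 and 8 detected members (replicates 1 to 3) and the BTBR samples 6, 9 and 8, that is 6.33 ± 1.53 and 7.67 ± 1.53 (SD, n = 3 each). The groups overlapped. Detected in at least 1 BTBR and no C57BL/6J sample were 3 members (9.09%), against 15.2% of the panel. Detected in at least 1 C57BL/6J and no BTBR sample were 2 (6.06%), against 3.73%. With so few members, neither count is a result about these families.

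The 1 member detected in every BTBR sample while undetermined in the other strain was mmu-miR-467a (assay 002587), a pattern that 3.73% of the panel shared. By its name alone, it reads the main strand of the multi-copy miR-467a hairpins. The reverse pattern was found in 0 members and 0.4% of the panel. Raw thresholds of assay 002587 in BTBR were 29.23, 26.78 and 33.66 cycles, a spread of 3.49 cycles (SD, n = 3). All 3 C57BL/6J samples were undetermined, and the other assay of the same name, 001826 in pool B, was undetermined in all 6. In the control RNAs, too, fewer C57BL/6J than BTBR spots gave a signal, as given above, and the part of that in this pattern was not tested. The assay mmu-miR-297a#, by its name for the less abundant strand, had late readings of 29.72 and 33.31 cycles in BTBR replicates 2 and 3. It was undetermined elsewhere.

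Another 3 assays rested on 1 reading each. MMU-MIR-669C was read at 25.53 cycles in BTBR replicate 2 alone and MMU-MIR-669O at 29.90 in C57BL/6J replicate 3 alone. MMU-MIR-466E-5P was read at 16.21 cycles in C57BL/6J replicate 3 alone, by far the earliest reading of any member and earlier than all but 10.4% of the assays detected in that sample. Across the panel, 49 assays were detected in exactly 1 sample, and 10 of these under 20 cycles. With 1 well per assay and sample, a single reading has no replicate, and no level is drawn from it.

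The second question was whether the level of the members that could be measured differs between strains. It was put to 2 scales: the authors' quantile-normalized thresholds, and raw thresholds after subtraction of the sample's mean threshold of the 237 assays with 6 values (the global mean scale). Changes are log2, BTBR minus C57BL/6J, with 1 cycle taken as a 2-fold difference, so a negative change means less RNA in BTBR. Tests were limma fits over all assays with at least 2 values in each strain, adjusted over all of them by Benjamini-Hochberg with a threshold of 0.05. On the authors' values 3 members could be tested, and 2 of them, mmu-miR-669a and mmu-miR-467c, fell and 0 rose, where 35.5% of the 231 assays tested fell and 1.3% rose (36.8% in either direction). On the global mean scale 6 members could be tested and 0 passed in limma, as did 0% of the 270 assays, with 3 of the 6 and 26.3% of all at an unadjusted p under 0.05. The median change of all assays tested was -1.13 on the authors' scale and -0.40 on the global mean scale, and of the members tested -2.91 and -0.80. Of 27 tested assays of the distal Dlk1-Dio3 list, 11 fell and 0 rose on the authors' values, with a median of -0.99, and 0 of 29 passed on the global mean scale, with a median of -0.41.

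**Figure D3:**
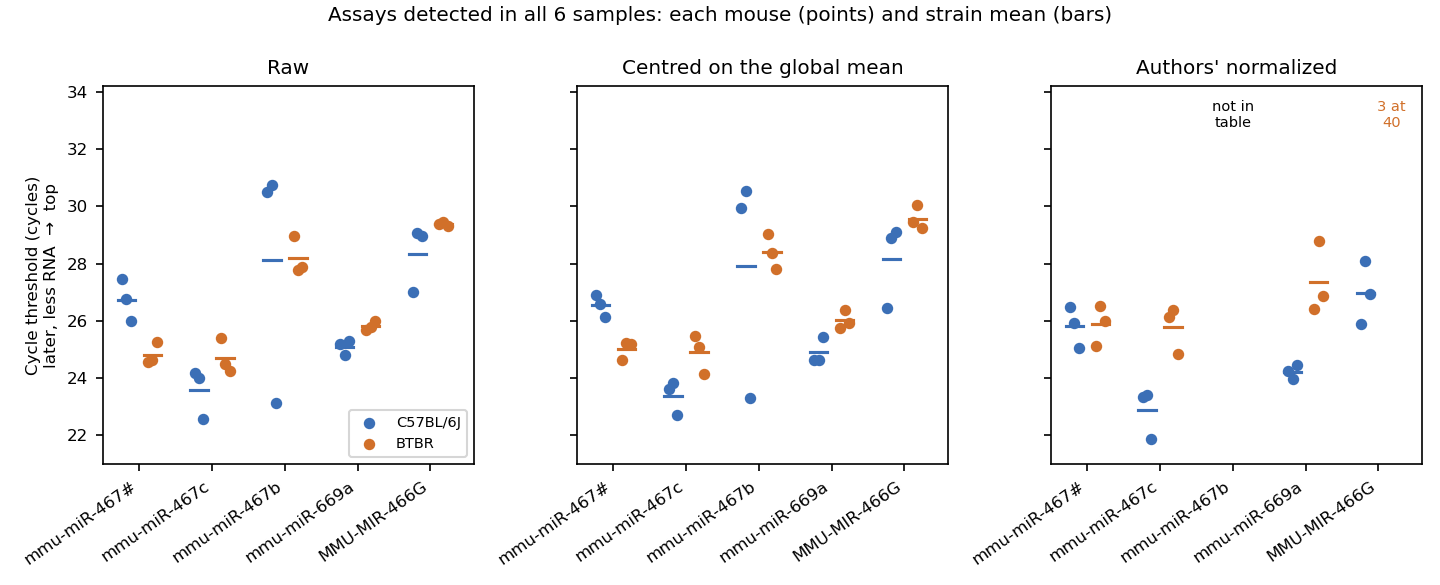
Cycle thresholds (in cycles, later towards the top) of the 5 assays detected in all 6 samples, as raw values, centred on the global mean, and as the authors' normalized values. Points are mice and bars are strain means over values under 40. For mmu-miR-467c and mmu-miR-669a the strains lie apart on all 3 scales, for mmu-miR-467# they lie apart on the first 2 and overlap on the third, and MMU-MIR-466G has 3 BTBR values at 40 on the third.

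For mmu-miR-669a, from the hairpins with most copies, raw thresholds were 25.21, 24.80 and 25.29 cycles in C57BL/6J and 25.68, 25.79 and 26.001 in BTBR. Every BTBR mouse was later than every C57BL/6J mouse, by little: the means were 25.10 ± 0.262 and 25.82 ± 0.162 cycles (SD, n = 3 each). On the authors' values the same samples stood at 24.26, 23.97 and 24.46 cycles in C57BL/6J and 26.43, 28.79 and 26.88 in BTBR. The gap between strains was wider there, and BTBR replicate 2, close to replicate 1 in the raw table, came to lie over 2 cycles from it. The change was -3.14 (standard error 0.66), an 8.79-fold fall (limma adjusted p = 0.0298), and -2.01 relative to the median of the panel. On the global mean scale it was -1.12 (standard error 0.39, limma adjusted p = 0.149), or -0.72 relative to the panel, where 20.7% of the assays lay lower.

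For mmu-miR-467c, from a single hairpin, raw thresholds were 24.20, 24.01 and 22.56 cycles in C57BL/6J and 25.41, 24.51 and 24.23 in BTBR. Of the 5 members found in all samples it was read earliest in every mouse but BTBR replicate 1, where mmu-miR-467# came before it. The groups did not overlap, but BTBR replicate 3 and C57BL/6J replicate 1 were nearly level, at 24.233 and 24.196 cycles. The authors' values were 23.34, 23.42 and 21.89 against 26.15, 26.39 and 24.83 cycles, again wider apart. The change there was -2.91 (standard error 0.62), a 7.50-fold fall (limma adjusted p = 0.0301), and -1.78 relative to the panel. Centred on the global mean it was -1.52 (standard error 0.51, limma adjusted p = 0.149), or -1.12 relative to the panel, with 7.41% of the assays lower.

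Both calls changed with the scaling and with which mice were kept. When the authors' values were centred on the sample medians, the limma adjusted p was 0.103 for mmu-miR-669a (change -1.96) and 0.0948 for mmu-miR-467c (-1.73). Neither passed without C57BL/6J replicate 2 (0.0709 for mmu-miR-669a and 0.0646 for mmu-miR-467c), without C57BL/6J replicate 3 (0.0685 each) or without BTBR replicate 1 (0.0604 and 0.0727), and mmu-miR-467c did not pass without BTBR replicate 2 (0.0678), all limma adjusted p. The changes in these fits were -3.00, -3.25 and -3.61 for mmu-miR-669a and -3.17, -2.41, -2.73 and -2.61 for mmu-miR-467c. With all mice they were -3.14 and -2.91. Without BTBR replicate 2, mmu-miR-669a still passed (limma adjusted p = 0.0468), but its change was -2.42, the smallest of its fits with a mouse left out. Calls over the whole panel in the same 4 fits numbered 3, 0, 0 and 8, against 85 with all mice. Without BTBR replicate 3, the sample closer to the other strain, the changes were -3.38 for mmu-miR-669a and -3.39 for mmu-miR-467c on the authors' values (limma adjusted p = 0.0232 and 0.0114). Without that mouse, on the global mean scale, mmu-miR-467c passed at -1.90 (limma adjusted p = 0.0484), as did 55 of all assays, and mmu-miR-669a did not (-1.17, 0.108).

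The strand mmu-miR-467#, by its old name the less abundant strand of a miR-467a hairpin, ran the other way in the raw table. Its raw thresholds were 27.47, 26.78 and 25.98 cycles in C57BL/6J and 24.55, 24.65 and 25.26 in BTBR. Every BTBR mouse was earlier, with means of 26.74 ± 0.743 and 24.82 ± 0.384 cycles (SD, n = 3 each). On the authors' values the strains overlapped, at 26.49, 25.91 and 25.05 cycles in C57BL/6J and 25.12, 26.52 and 25.998 in BTBR. The change there was -0.06 (standard error 0.54, 95% interval -1.40 to 1.27, limma adjusted p = 0.921), which is 1.06 above the median of the panel. On the global mean scale it was 1.53 (standard error 0.37, 95% interval 0.62 to 2.44), with an unadjusted limma p of 0.00619 that became 0.132 after adjustment, and 87% of the assays lay lower. It was -0.08 when scaled to the median of the U6 control spots (limma adjusted p = 0.947), of which 11 to 13 of 16 gave a signal in C57BL/6J and 16 of 16 in BTBR. The same scaling put mmu-miR-669a at -2.73, mmu-miR-467c at -3.13 and MMU-MIR-466G at -3.04 (limma adjusted p = 0.0637 each), and the median of all assays at -2.01. Without BTBR replicate 3 the change on the global mean scale passed, at 1.61 (limma adjusted p = 0.0484).

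MMU-MIR-466G, from a hairpin near the end of the cluster, was read late in every sample, at 27.01, 29.06 and 28.96 cycles in C57BL/6J and 29.37, 29.44 and 29.32 in BTBR. The BTBR mice were all later, but close to C57BL/6J replicates 2 and 3, and C57BL/6J replicate 1 was the early sample. In the authors' normalized table the C57BL/6J values were 25.88, 28.09 and 26.95 cycles, and all 3 BTBR values were 40. In the authors' deposited table, where 40 counts as a measured value, the difference is 13.03 cycles, that is 8349.7-fold less in BTBR, with an adjusted p-value of 0.0211. The raw means, 28.34 ± 1.16 and 29.38 ± 0.0606 cycles (SD, n = 3 each), differed by 1.03 cycles. The change on the global mean scale was -1.43 (standard error 0.78, limma adjusted p = 0.283), and -0.68 without C57BL/6J replicate 1 (limma adjusted p = 0.508).

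The distance between those values could be followed through the authors' steps. Rebuilt up to the quantile normalization, the BTBR readings of MMU-MIR-466G at 29.37, 29.44 and 29.32 cycles became 34.37, 38.24 and 34.22. In the authors' normalized table these stand at 40. There the highest value under 40 was 29.19 cycles, and the lowest rebuilt value that stands at 40 was 30.03. With these late readings kept, the change was -8.64 (standard error 1.28, limma adjusted p = 0.0299). Another 3 members entered the quantile normalization but are not in the normalized table: mmu-miR-467b, MMU-MIR-669M and mmu-miR-467a (assay 002587), with 6, 4 and 3 raw readings. The step that left them out was not rebuilt. For mmu-miR-467a the rebuilt BTBR values were 34.31, 34.06 and 37.09 cycles, with no C57BL/6J reading to set against them. With late readings kept, the changes of mmu-miR-467b and MMU-MIR-669M were -6.32 (standard error 2.36, limma adjusted p = 0.0856) and -7.72 (1.99, 0.0633), while the raw strain means were 28.12 and 28.20 cycles for mmu-miR-467b and 30.30 and 30.31 for MMU-MIR-669M.

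For mmu-miR-467b, again from a single hairpin, raw thresholds were 30.49, 30.73 and 23.15 cycles in C57BL/6J and 28.97, 27.76 and 27.88 in BTBR. C57BL/6J replicate 3 was over 7 cycles earlier than the other mice of its strain, and the spread of that strain, 4.31 cycles (SD, n = 3), was larger than that of 97.9% of the 237 assays with 6 values. The change on the global mean scale was -0.47 (standard error 1.94, 95% interval -5.24 to 4.29, limma adjusted p = 0.856), and 1.89 without C57BL/6J replicate 3 (0.168). MMU-MIR-669M, which matched 2 neighbouring hairpins, was read at 31.26 and 29.35 cycles in C57BL/6J replicates 2 and 3 and at 30.47 and 30.15 in BTBR replicates 2 and 3, and was undetermined in replicate 1 of both strains. The strains overlapped, and its change on the global mean scale was -0.28 (standard error 0.78, 95% interval -2.46 to 1.90, limma adjusted p = 0.816).

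**Figure D4:**
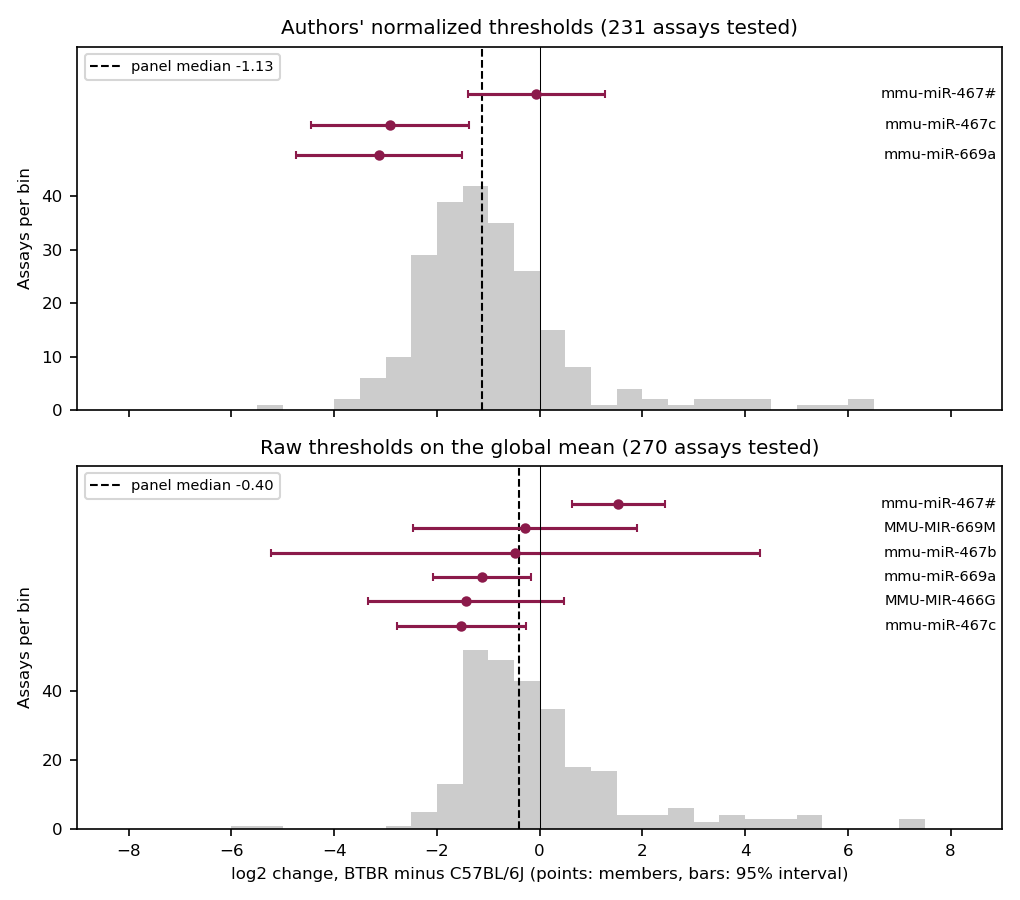
Fitted log2 changes, BTBR minus C57BL/6J, of the members (points, with 95% intervals) above histograms of all assays tested, on the authors' normalized thresholds (231 assays) and on raw thresholds centred on the global mean (270 assays). Dashed lines are the panel medians, -1.13 and -0.40. The members mmu-miR-669a and mmu-miR-467c lie left of the median on both scales and mmu-miR-467# lies right of it on both.

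In the authors' deposited table, mmu-miR-467c has a ratio of BTBR to C57BL/6J of 0.133 (adjusted p-value 0.0682), mmu-miR-669a one of 0.114 (0.128) and mmu-miR-467# one of 0.956 (0.930). By that table's adjusted p-values MMU-MIR-466G is thus the 1 member under 0.05, and it is the member whose BTBR readings were set to 40.

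The third question was whether the members moved relative to each other. A shift common to all assays of a sample cancels in the difference of 2 raw thresholds of 1 mouse. A shift of 1 pool, or one that varies with the threshold as in quantile normalization, does not cancel, and MMU-MIR-466G is in the other pool from mmu-miR-467#. The comparison was added after the values above were seen. In the raw table, BTBR mice were all earlier for mmu-miR-467# and all later for mmu-miR-669a, mmu-miR-467c and MMU-MIR-466G. The differences of mmu-miR-467# from each of these had to separate the strains too. Their exact permutation p of 0.1 was thus fixed beforehand and adds no support, and only the sizes are new. The threshold of mmu-miR-467# minus that of mmu-miR-467c was 3.27, 2.77 and 3.42 cycles in C57BL/6J mice and -0.86, 0.14 and 1.03 in BTBR mice. In C57BL/6J cortex mmu-miR-467# was thus read about 3 cycles after mmu-miR-467c (3.15 ± 0.340, SD, n = 3), and in BTBR cortex at nearly the same cycle (0.10 ± 0.945). The difference between strains was -3.05 cycles (exact two-sided permutation test, p = 0.1, the smallest that 3 mice against 3 allow, 0.333 adjusted over 10 pairs). On the authors' values it was -2.84 cycles. Against mmu-miR-669a, mmu-miR-467# was at 2.26, 1.98 and 0.70 cycles in C57BL/6J and -1.13, -1.14 and -0.74 in BTBR, a difference between strains of -2.65 cycles (exact permutation p = 0.1, 0.333 adjusted). Against MMU-MIR-466G the difference between strains was -2.96 cycles (exact permutation p = 0.1, 0.333 adjusted), and these groups did not overlap either.

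Among mmu-miR-669a, mmu-miR-467c and MMU-MIR-466G the differences between strains were smaller. Over all pairs of panel assays with 6 values, the median size of the difference between strains was 1.04 cycles. The threshold of mmu-miR-669a minus that of mmu-miR-467c was 1.51 ± 1.06 cycles in the 3 C57BL/6J mice and 1.11 ± 0.764 in the 3 BTBR mice (SD), with overlapping groups (exact permutation p = 0.7). The difference between strains for this pair was -0.40 cycles in the raw table and 0.23 on the authors' values. For mmu-miR-467c against MMU-MIR-466G the difference between strains was 0.10 cycles (exact permutation p = 0.9), and for mmu-miR-669a against MMU-MIR-466G -0.30 (p = 0.9, exact permutation). With 3 mice per strain, such values do not show that these members act alike. The 4 pairs with mmu-miR-467b ranged widely in C57BL/6J, where replicate 3 was far from the others, and 0 of them separated the strains. The differences between strains were -2.01 cycles for mmu-miR-467# minus mmu-miR-467b and 0.65 for mmu-miR-669a minus mmu-miR-467b. For mmu-miR-467b minus mmu-miR-467c and minus MMU-MIR-466G they were -1.05 and -0.95. In all, the groups did not overlap in 3 of 10 member pairs (30%), each of them with mmu-miR-467#, and in 31% of the 27966 pairs of panel assays with 6 values, so separation as such was as frequent among members as in the panel.

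**Figure D5:**
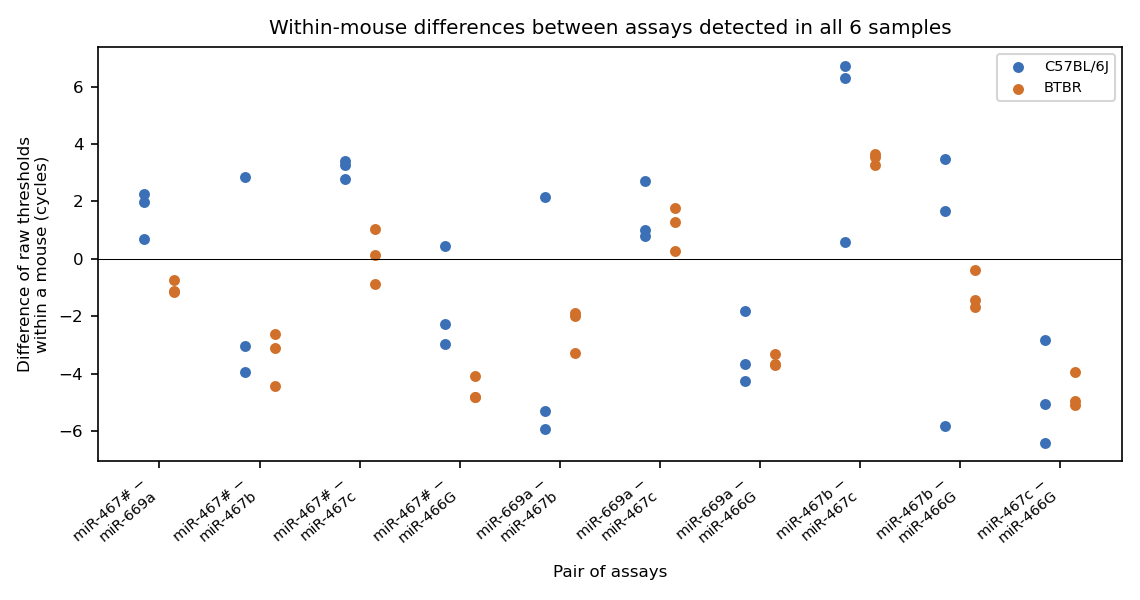
Differences between the raw thresholds of 2 assays in the same mouse (in cycles), for the 10 pairs of the 5 assays detected in all 6 samples, with C57BL/6J and BTBR mice as separate columns of points. The strains are apart in the 3 pairs of mmu-miR-467# with mmu-miR-669a, mmu-miR-467c and MMU-MIR-466G and overlap in the other 7.

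Over all 5 assays with 6 raw values, BTBR mice were all later in 3 (mmu-miR-669a, mmu-miR-467c and MMU-MIR-466G) and all earlier in 1 (mmu-miR-467#), against 18.1% and 14.3% of the 237 panel assays. The spread within a strain differed widely among these members. Among BTBR mice MMU-MIR-466G had an SD of 0.0606 cycles mmu-miR-669a one of 0.162 and mmu-miR-467# one of 0.384, below the median of 0.524 cycles for the 237 assays, while mmu-miR-467c (0.618) and mmu-miR-467b (0.665) lay above it. Among C57BL/6J mice only mmu-miR-669a (0.262) lay below the median of 0.516. By threshold, the 5 were moderate to late: mmu-miR-467c was read later than 47.8% to 70.9% of the assays detected in a sample, mmu-miR-669a than 65.1% to 78.2%, mmu-miR-467# than 65.1% to 81%, mmu-miR-467b than 51.6% to 94% and MMU-MIR-466G than 77% to 95%. Assays differ in efficiency, so such ranks place an assay in the run and are not amounts of miRNA.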

How the data were processed

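RNA was purified on columns and had an integrity number of 9, and 100 ng per sample was reverse transcribed, pre-amplified and run on the OpenArray rodent panel, per the labels' protocols. Whether samples ran on 1 array or several is not stated there. The deposited raw table holds cycle thresholds (a score with no fixed range), and the authors' normalized table holds quantile-normalized thresholds, a score per the file headers. It was rebuilt from the raw table up to the quantiles (values under 10 set to 40, the 340 assays detected in at least 3 samples kept, quantiles with 40 as a value). This matched the values under 40 of the 306 deposited assays to within 3.33e-09 cycles. The later steps, by which late values became 40 and the 340 assays became 306, were not rebuilt. The authors' deposited table gives a ratio, a log2 difference, a test score and p-values, with no method stated beyond its column names.

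Here thresholds were multiplied by -1 and values of 40 (and raw values under 10) were missing, except that undetermined U6 spots entered the U6 median at 40. Strains were compared with limma 3.58.1 in R 4.3.3, assays needing 2 values per strain, and counts and differences were computed in Python 3.11.15. The limma step was run on simulated data with independent noise and changes of random direction. Such data lack the shift of the whole panel on the authors' values, so they do not bear on the calls there. Each assay was 1 PCR per mouse, with 3 mice in each strain, and this sets the precision, since a threshold has no counting depth. All members were kept and named. The members, the lists and the scales were chosen with earlier results of these data known. Alternatives were other scalings, filters and late limits, a replicate block and leaving out each mouse.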

Additional observations from a re-analysis of the deposited data

How the results depend on the processing

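On the authors' values, 2 of 3 members passed (85 of the 231 assays tested, 3 higher and 82 lower). The count of members was 0 with values centred on sample medians (2 of all assays, 1 higher and 1 lower) and 0 to 2 when a mouse was left out (0 to 101 of all assays). With 40 kept as a value, 3 of 4 members passed (96 of 306 assays, 26 higher and 70 lower). With late readings kept, 3 of 6 passed (86 of 270 assays, 2 higher and 84 lower). In both, MMU-MIR-466G was the third, and more members could be tested than in the main fit. With the replicate number as a block, 1 member passed, mmu-miR-467c (32 of all assays), and mmu-miR-669a had a limma adjusted p of 0.0503. Equal replicate numbers are not stated to pair the mice, and the deviations of same-numbered mice correlated at 0.083, 0.421 and -0.00132, so the numbers were not taken to pair the mice. The change of mmu-miR-467# on the authors' values was 1.11 with centring and ranged from -0.45 to 0.32 when a mouse was left out. On the global mean scale, of the 4 to 6 members that could be tested, 0 passed under each alternative except without BTBR replicate 3, where 2 of 5 passed (range 0 to 2, and 0 to 55 of all assays, 23 higher and 32 lower without that mouse). There mmu-miR-467# was at -0.08 under U6 scaling, and mmu-miR-467b ranged from -1.78 to 1.89 when a mouse was left out. Over all alternatives run on raw thresholds, the change ranged from -2.73 to -0.73 for mmu-miR-669a, from -3.13 to -1.13 for mmu-miR-467c, from -3.04 to -0.68 for MMU-MIR-466G and from -2.48 to about 0 (-0.0045, no scaling) for MMU-MIR-669M. The difference in detected members per sample, 1.33 more in BTBR, was -1 when read from the authors' normalized table, where the BTBR readings of MMU-MIR-466G stand at 40. Where not named, the cause was not tested. Late readings above about 30 cycles and 1 well per sample limit what these assays can resolve.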
